A study of Mus musculus with 4 samples.

Results

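Toll-like receptors (TLRs) are innate sensors of microbial molecules, and their levels across CD11b+ cells of the mouse spleen were followed here for 10 genes of 27,998 in the count table. The genes were listed by name rather than by any measured value, though with earlier results of these data known. They are Tlr1, Tlr2, Tlr4, Tlr6, Tlr7, Tlr9, Tlr13, Cd14, Ly96 and Myd88. All 10 had unique molecular identifiers (UMIs, each counting 1 captured mRNA molecule) in both libraries. The study sorted CD11b+ splenocytes by flow cytometry and made 1 library of cells and antibody tags from the steady state and 1 from mice given GM-CSF, a growth factor of myeloid cells, here called GM-conditioned. The treated mice received 3 once-daily subcutaneous injections of 10 µg and their cells were taken 24 h after the last one, whereas the steady-state library came from mice without GM-CSF. The labels give neither the strain nor the number of mice behind each library, and the methods name C57BL/6 mice and lines derived from them, aged 8 to 12 weeks, for the study as a whole. With 1 library per condition, library and treatment cannot be told apart and no test between conditions was made.

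TLR2 sits on the cell surface and pairs with TLR1 or TLR6 to bind bacterial lipopeptides. TLR4 recognizes lipopolysaccharide together with MD-2, the product of Ly96, after CD14 has handed the lipid over. TLR7, TLR9 and TLR13 lie in endosomes and read nucleic acids of microbes, namely single-stranded RNA, unmethylated CpG DNA and bacterial ribosomal RNA. All of these receptors signal through the adaptor MyD88. In the spleen, monocytes, macrophages, neutrophils and dendritic cells (DCs) are the main myeloid carriers of TLRs.

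The steady-state library held 4827 cells with 22,358,903 UMIs and the GM-conditioned library 6804 cells with 35,007,567 UMIs, with 8 cell barcodes present in both. Levels are given as CPM, the UMIs of a gene per 1,000,000 UMIs of its group of cells, with exact Poisson 95% intervals, and shares of cells with at least 1 UMI carry exact (Clopper-Pearson) 95% intervals, both of which cover counting error only. Cell types, MoMacDC clusters and CD115hi subsets are the deposited labels, of which groups under 20 cells were not ranked, and MoMacDC stands for the 2135 steady-state and 3940 GM-conditioned cells of monocyte, macrophage and DC kind. Several labels did not match their markers. The 214 and 20 cells labelled cDC2-A carried NK cell markers (a summed 19,168 and 19,911 CPM over 6 genes) and cDC2 markers at a summed 19.8 and 15.9 CPM. The 43 steady-state cells labelled MoMacDC_c4 also carried NK cell markers (11,946 CPM against 1.57 CPM in the GM-conditioned ones), as did the steady-state cells of MoMacDC clusters 7 and 8 (5132 and 12,267 CPM against 0.971 and 1.64 CPM). MoMacDC clusters 11, 14 and 15 carried neutrophil and granulocyte markers at 20,792 to 154,589 CPM.

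The members lie on 7 chromosomes. On GRCm38 with the GENCODE annotation, Tlr1 (chr5:64924679-64933563) and Tlr6 (chr5:64952031-64960097) are neighbours on the minus strand with 18,467 bases between them. Tlr7 (chrX:167304929-167330558, minus strand) lies 40,599 bases from Tlr8, and Tlr13 (chrX:106143204-106160493, plus strand) is on the same chromosome far from both. Tlr2 is at chr3:83836272-83841767 on the minus strand, Tlr4 at chr4:66827584-66930284 on the plus strand, Ly96 at chr1:16688051-16709611 on the plus strand and Tlr9 at chr9:106222598-106226883 on the plus strand. Myd88 (chr9:119335934-119341411, minus strand) overlaps Slc22a14 on its own strand and Acaa1a on the other, and the effect of this on its counts was not tested.

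Promoter windows from RefSeq (GRCm38.p6, 250 bases before to 50 after a start site) were read for 6 of the 10 members, and 3 are shown. These are that of Tlr13, which was lower after GM-CSF in MoMacDC cells, and those of the lipopeptide partners Tlr2 and Tlr1, whose MoMacDC levels pointed in opposite directions. Each reads 5′ to 3′ on the strand of the gene, and capitals mark matches on either strand to GAGGAAGT (a PU.1-like motif, in 3.20% of 32,851 promoter windows), GGGA and CC with any 4 bases between them (NF-kB-like, 20.7%), GAAA and GAAA with any 2 bases between them (interferon-stimulated element-like, 3.44%) or TGANTCA (AP-1, 7.81%).
Tlr13, chrX:106143025-106143324, plus strand: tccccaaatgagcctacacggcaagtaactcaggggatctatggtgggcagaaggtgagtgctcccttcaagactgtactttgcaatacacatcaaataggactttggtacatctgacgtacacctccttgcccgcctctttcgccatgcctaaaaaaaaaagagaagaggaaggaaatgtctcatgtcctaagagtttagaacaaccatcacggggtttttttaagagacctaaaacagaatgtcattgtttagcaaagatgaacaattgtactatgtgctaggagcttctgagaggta
Tlr2, chr3:83841559-83841858, minus strand: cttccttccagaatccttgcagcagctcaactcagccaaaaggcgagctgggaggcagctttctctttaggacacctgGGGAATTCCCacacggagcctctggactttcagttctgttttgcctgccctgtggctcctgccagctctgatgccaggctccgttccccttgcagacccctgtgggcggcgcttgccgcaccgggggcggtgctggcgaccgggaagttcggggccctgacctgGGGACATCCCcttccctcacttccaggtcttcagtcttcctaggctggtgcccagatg
Tlr1, chr5:64933509-64933808, minus strand: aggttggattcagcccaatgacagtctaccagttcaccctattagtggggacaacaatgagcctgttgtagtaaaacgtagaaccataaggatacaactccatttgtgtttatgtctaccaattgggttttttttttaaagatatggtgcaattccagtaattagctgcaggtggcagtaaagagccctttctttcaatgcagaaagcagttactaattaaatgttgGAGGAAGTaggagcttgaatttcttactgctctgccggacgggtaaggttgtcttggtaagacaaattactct
The Tlr2 window held 2 NF-kB-like matches, 172 and 8 bases before the start site, each of which reads as a match on both strands. The Tlr1 window shown held 1 PU.1-like match 23 bases before the start site, whereas a second RefSeq window of Tlr1 (chr5:64932650-64932949), not shown, held none of the motifs. The window of Tlr13 held none of the 4 motifs. A match describes the letters only.

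Across MoMacDC cells as a whole, the endosomal receptors Tlr7 and Tlr13 stood furthest apart between the libraries, followed by Cd14, Ly96 and Tlr2. At a fixed rule of 2-fold for genes with at least 50 UMIs over both groups, which all 10 members met, 5 members were lower in the GM-conditioned MoMacDC cells and 0 were higher. Of the 10,860 genes with that many UMIs, 9.46% were at least 2-fold lower and 8.66% at least 2-fold higher. The members' median log2 ratio was -0.86, against -0.06 over all of these genes. The 5 lower members were Tlr7 (8.89-fold), Tlr13 (3.77-fold), Cd14 (2.55-fold), Ly96 (2.12-fold) and Tlr2 (2.05-fold), and the counting intervals of Ly96 (1.84 to 2.44) and Tlr2 (1.89 to 2.23) spanned the rule. The make-up of MoMacDC cells differed at the same time, with classical monocyte markers (5 of 5 detected) at a summed 3948 CPM in steady state and 857 CPM after GM-CSF, and non-classical monocyte markers (6 of 6 detected) at 1629 and 213 CPM. With the GM-conditioned clusters weighted by the steady-state mix, an alternative chosen after seeing the data, 2 members passed the rule, Tlr7 (2.81-fold lower) and Tlr13 (2.32-fold lower), where 745 of the 10,860 genes were lower and 545 higher, while Cd14 (1.85-fold), Tlr2 (1.82-fold) and Ly96 (1.78-fold) no longer did. This weighting used the 12 clusters with at least 20 cells in each library. It left out clusters 13 to 16 and cluster 0, with 668 GM-conditioned and 14 steady-state cells. It kept clusters 7 and 8, whose steady-state cells carried NK markers.

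**Figure D1:**
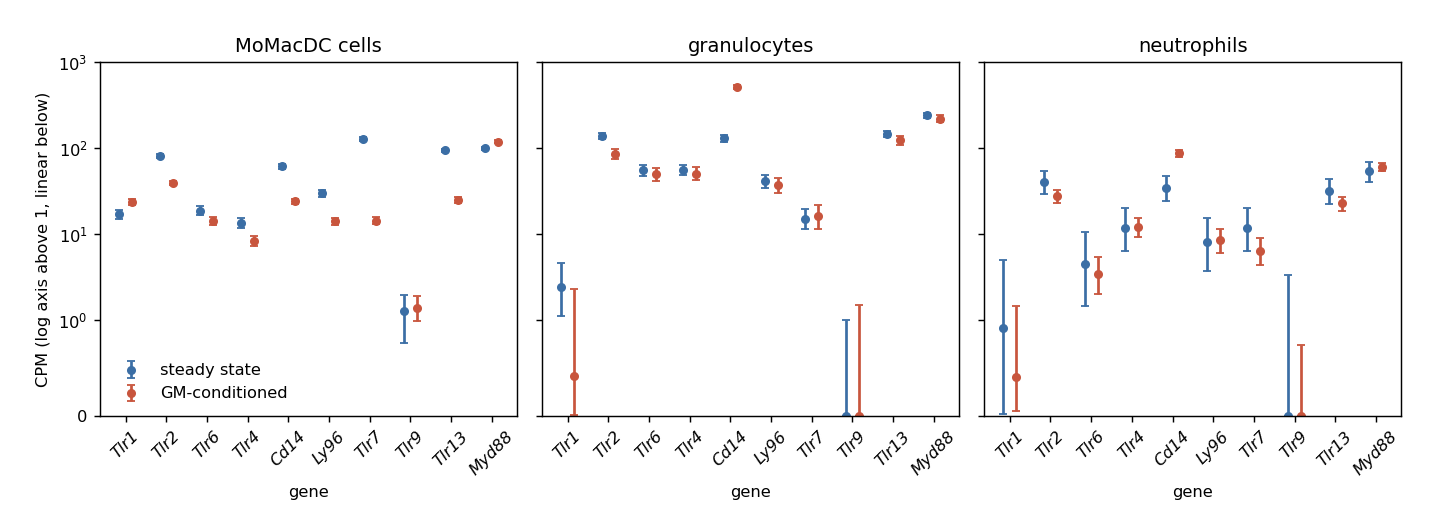
Levels of the 10 genes in MoMacDC cells, granulocytes and neutrophils of the steady-state (blue) and GM-conditioned (red) library, in CPM on an axis that is logarithmic above 1, with bars for exact Poisson 95% intervals. Tlr7 lies at 129 and 14.5 CPM in the pair of MoMacDC points, and Cd14 lies at 131 and 519 CPM in the pair of granulocyte points.

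Tlr2, the shared partner of the lipopeptide receptors, was present in granulocytes and MoMacDC cells alike. In steady state its level was 139 CPM (128 to 152) in granulocytes and 135 CPM (71.8 to 231) in the 25 macrophages, and these did not differ beyond counting error. MoMacDC_c1, MoMacDC_c5 and MoMacDC_c2 followed at 92.7, 79.0 and 74.5 CPM, and neutrophils at 40.3 CPM. The lowest levels were in T cells (13.8 CPM) and in the cDC2-A cells with NK markers (1.16 CPM), and the part of free RNA in them was not tested. Tlr2 was detected in 35.4% of MoMacDC cells in steady state (33.3 to 37.4) and in 21.7% (20.4 to 23.0) after GM-CSF, at median depths of 6894 and 6654 UMIs per cell. In T cells, with a median of 3747 and 2357 UMIs, the shares were 5.17% and 0 of 39 cells. After GM-CSF the granulocyte level was 86.6 CPM (75.3 to 99.2), a ratio of 0.623 (0.527 to 0.732). The neutrophil level was 28.0 CPM, a ratio of 0.688 (0.491 to 0.997), and both stayed within the 2-fold rule. The level in MoMacDC cells was 80.9 CPM in steady state and 39.4 CPM in the GM-conditioned library. Within clusters, Tlr2 was at least 2-fold lower after GM-CSF in 4 (1, 2, 4 and 5) of the 11 clusters with 50 UMIs. Cluster 6, which had the highest level in both libraries, went from 114 to 61.4 CPM, 1.84-fold lower (1.37 to 2.54). Clusters 9 and 12, which hold most Progenitor DC, pointed the other way, with ratios of 1.51 (1.009 to 2.33) and 1.76 (0.777 to 6.12).

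Tlr1, which joins TLR2 for triacylated lipopeptides, had a distribution of its own. It was close to absent from granulocytes, with 9 UMIs in 1929 cells in steady state and 1 UMI in 1791 cells after GM-CSF, and from neutrophils, with 1 and 2 UMIs. Steady-state levels were 51.9 CPM in macrophages (5 UMIs), 44.5 CPM in B cells, 43.7 CPM in Progenitor DC and 37.6 CPM in MoMacDC_c2, 4 groups whose intervals overlapped. MoMacDC_c1 lay at 12.8 CPM (10.6 to 15.3), no higher than T cells at 17.9 CPM (9.52 to 30.6). After GM-CSF, Tlr1 in MoMacDC_c1 was 28.0 CPM (24.6 to 31.8), a ratio of 2.18 (1.75 to 2.74), whereas in MoMacDC_c2 it was 21.6 CPM (18.7 to 24.8). Over all MoMacDC cells the level was 17.1 and 23.7 CPM, a ratio of 1.39 (1.20 to 1.61) that stayed under the 2-fold rule. Tlr1 was therefore the only receptor of the 7 besides the sparse Tlr9 whose MoMacDC level was higher in the GM-conditioned library.

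Tlr6, the partner of TLR2 for diacylated lipopeptides and the neighbour of Tlr1 on chromosome 5, was highest in granulocytes, where Tlr1 was nearly absent. Granulocytes held 55.5 CPM in steady state (48.2 to 63.7) and 50.1 CPM after GM-CSF (41.6 to 59.9). The next group in steady state was MoMacDC_c1 at 21.8 CPM (19.0 to 25.03), apart from granulocytes beyond counting error. Neutrophils, although also granulocytic, held 4.58 and 3.44 CPM. In MoMacDC cells the level was 18.8 CPM in steady state and 14.2 CPM in the GM-conditioned library, 1.32-fold lower (1.13 to 1.54). Of the 6 clusters with 50 UMIs, 1 was past the 2-fold rule, cluster 3, which was higher after GM-CSF at a ratio of 2.08 (0.914 to 7.27) on 5 steady-state UMIs. Cells with UMIs of both Tlr2 and Tlr6 made up 4.68% of MoMacDC cells in steady state and 2.39% after GM-CSF, against 3.51% and 3.96% for Tlr1 with Tlr2. Thinned to 1000 UMIs per cell, which left out 14 and 61 cells, these shares were 0.236% and 0.0773% for Tlr2 with Tlr6, too few cells to rank.

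Tlr4, the lipopolysaccharide receptor, was highest in macrophages at 156 CPM in steady state (15 UMIs, 87.1 to 257) and 148 CPM after GM-CSF (7 UMIs, 59.6 to 305). Granulocytes were next, at 56.1 CPM (48.7 to 64.3) and 51.0 CPM (42.4 to 60.8). After GM-CSF the intervals of macrophages and granulocytes overlapped, and granulocytes led for Tlr4 with at most 5% mitochondrial UMIs. All other groups of at least 20 cells lay below 21 CPM in both libraries. Tlr4 in MoMacDC cells was 13.6 CPM in steady state and 8.34 CPM in the GM-conditioned library, 1.63-fold lower (1.34 to 1.98), with 8.81% and 5.36% of cells detected. None of the 12 clusters with at least 20 cells in each library reached 50 UMIs for Tlr4, so no cluster was read on its own.

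Ly96, which encodes the lipid-binding partner of TLR4, followed a similar order, with macrophages at 93.4 CPM (42.7 to 177) and granulocytes at 41.4 CPM (35.05 to 48.5) in steady state, whose intervals overlapped. MoMacDC_c1 lay at 36.0 CPM (32.3 to 40.1) and MoMacDC_c5 at 31.6 CPM (24.6 to 40.1), both within reach of granulocytes. T cells held 4.13 CPM. In MoMacDC cells Ly96 was 30.0 CPM in steady state and 14.1 CPM after GM-CSF, with 17.1% and 8.93% of cells detected. The level was at least 2-fold lower in 2 of 8 clusters with 50 UMIs, cluster 4 (35.1 to 10.1 CPM, 4 UMIs after GM-CSF) and cluster 6 (50.04 to 19.7 CPM), and higher in 1, cluster 8 (3.06 to 15.3 CPM), where the steady-state level was 1 UMI in cells with NK markers. In granulocytes Ly96 was 41.4 CPM and 37.3 CPM, and the ratio of 0.904 (0.687 to 1.18) spanned 1.

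Cd14, the surface protein that delivers lipopolysaccharide to TLR4, pointed in opposite directions in MoMacDC cells and in granulocytes. In granulocytes it was 131 CPM in steady state (119 to 143, 481 UMIs) and 519 CPM after GM-CSF (490 to 548, 1252 UMIs), a ratio of 3.96 (3.57 to 4.41). The share of granulocytes with a UMI was 16.3% (14.7 to 18.002) and 39.0% (36.8 to 41.3), although their median depth was lower in the GM-conditioned library (1229 against 1770 UMIs). Thinned to 1000 UMIs, which left out 8 and 496 cells, the shares were 9.99% and 34.4%. Granulocytes with 3 or more Cd14 UMIs made up 1.71% and 7.54%, and the highest cell held 7 and 10. In neutrophils Cd14 was 34.8 CPM (24.6 to 47.8) in steady state and 88.3 CPM (80.2 to 97.0) after GM-CSF, a ratio of 2.51 (1.82 to 3.63), with 19.2% and 30.2% of cells detected. In the GM-conditioned library Cd14 had 0 UMIs in 79 B cells and 0 UMIs in 39 T cells, which allow up to 11.95 and 30.9 CPM at medians of 2741 and 2357 UMIs per cell, and 5.03 CPM in Progenitor DC.

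Cd14 was the only member past the 2-fold rule in these types. Of the 8 members with 50 UMIs in granulocytes, 1 was higher and 0 were lower, where 7.29% and 3.2% of 6257 genes were at least 2-fold higher and lower. Of the 6 in neutrophils, 1 was higher and 0 were lower, where 3.62% and 2.48% of 6489 genes were. The median log2 ratio of the members was -0.14 in granulocytes against 0.11 over all genes, and -0.01 against -0.05 in neutrophils. Scaling granulocytes to the median gene turned 456 higher and 200 lower genes into 343 and 254 and left Cd14 at a ratio of 3.68. In granulocytes the classical monocyte marker list (5 of 5 detected) summed to 1120 CPM in steady state and 730 CPM after GM-CSF. The macrophage marker list summed to 162 CPM (6 of 7) and 166 CPM (4 of 7, with C1qa, C1qb and Mertk at 0). The granulocyte and neutrophil list itself was 108,891 and 105,594 CPM. Without the 689 and 492 granulocytes that held a UMI of Ly6c2, Csf1r or H2-Aa, left out after seeing the data, the Cd14 ratio was 3.88. Whether other cell types or free RNA had a part in the Cd14 difference was not tested.

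In MoMacDC cells Cd14 was 61.7 CPM in steady state and 24.2 CPM in the GM-conditioned library, with 23.6% and 13.8% of cells detected. Macrophages had the highest level in steady state, 228 CPM (22 UMIs, 143 to 346), followed by granulocytes and by MoMacDC_c1 at 83.6 CPM (77.9 to 89.6). MoMacDC clusters 5 and 6, which had the highest classical monocyte markers of the clusters with at least 20 cells in each library (5899 and 9030 CPM), also led for Cd14 in steady state with 101 CPM each. After GM-CSF they held 43.7 and 29.0 CPM, 2.28-fold (1.68 to 3.23) and 3.44-fold (2.31 to 5.53) lower, when those markers were at 1344 and 3533 CPM. Cluster 7 was lower too (64.2 to 14.6 CPM), but its steady-state cells carried NK markers. Cluster 3 went from 8.25 CPM (6 UMIs) to 23.6 CPM, a ratio of 2.65 (1.26 to 8.01). The direction of the Cd14 difference thus varied among the clusters, with 3 lower and 1 higher of 8. Cells with UMIs of Cd14, Tlr4 and Ly96 together were rare, 13 of 2135 MoMacDC cells and 3 of 3940.

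**Figure D2:**
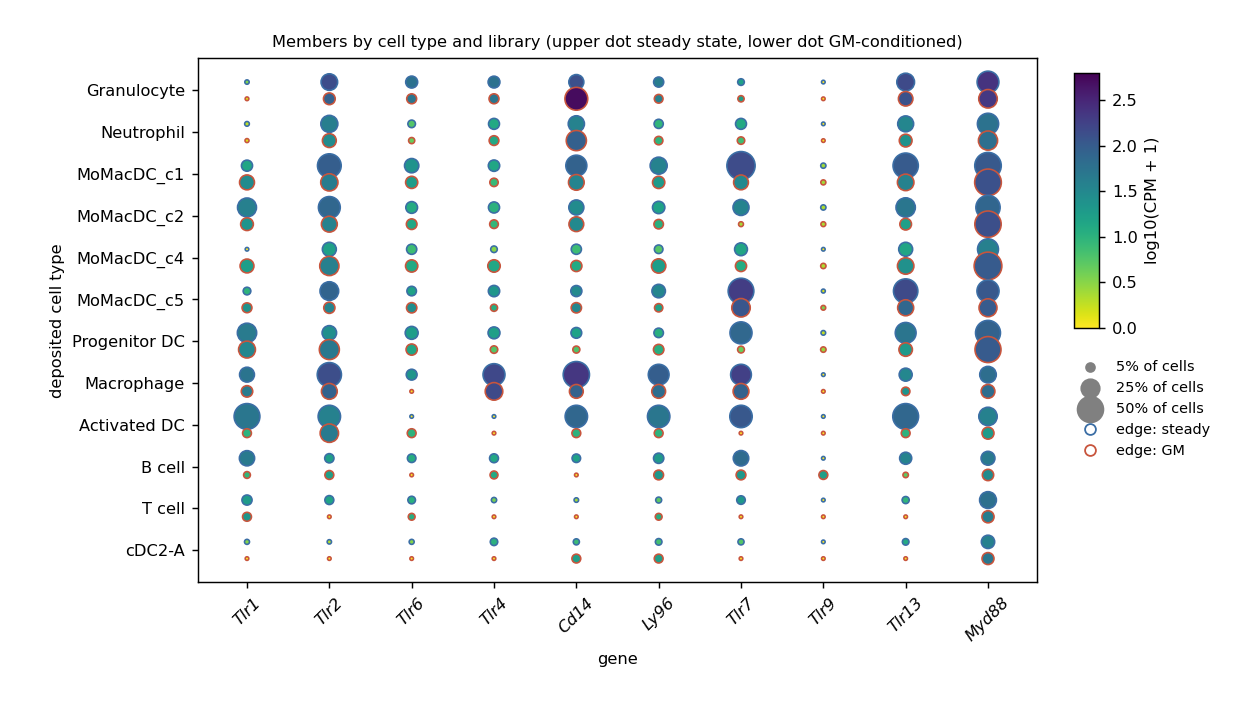
Each dot is 1 gene in 1 deposited cell type, with the steady-state library above and the GM-conditioned library below in each row, area for the percent of cells with a UMI and colour for log10 of CPM plus 1. Cd14 in granulocytes (16.3% and 39.0% of cells) is among the darker dots of the GM-conditioned library, whereas the Tlr7 dots of the MoMacDC groups are smaller and paler below than above.

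Tlr7, the endosomal receptor of single-stranded RNA, showed the widest gap of all members. In steady state it was highest in MoMacDC_c5 at 199 CPM (180 to 218), level with macrophages (187 CPM, 111 to 295) within counting error and above MoMacDC_c1 (142 CPM, 135 to 150). MoMacDC_c5 also had the highest non-classical monocyte markers of these labels, 4411 CPM. Progenitor DC (72.0 CPM) and B cells (67.3 CPM) came next with overlapping intervals, and then MoMacDC_c2 at 34.4 CPM (26.0 to 44.8). T cells (19.3 CPM), granulocytes (15.2 CPM), MoMacDC_c4 (13.4 CPM), neutrophils (11.9 CPM) and cDC2-A (4.66 CPM) formed a low group in which granulocytes and neutrophils were no higher than T cells.

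In the GM-conditioned library MoMacDC_c5 was at 110 CPM (79.6 to 148, 43 UMIs in 139 cells) and macrophages at 84.7 CPM (4 UMIs, 23.1 to 217), which did not differ beyond counting error, and macrophages were the higher of the pair after thinning, with equal cell weights and with at most 5% mitochondrial UMIs. MoMacDC_c1 was at 30.5 CPM (26.9 to 34.4), 4.66-fold lower than in steady state (4.09 to 5.34). Progenitor DC was at 3.35 CPM, 20.6-fold lower (11.1 to 46.3), and MoMacDC_c2 at 1.396 CPM, 23.98-fold lower (13.3 to 49.3). Granulocytes lay at 16.2 CPM, a ratio of 1.06 (0.686 to 1.62), so that Progenitor DC and MoMacDC_c2 were above granulocytes in steady state and below them after GM-CSF. B cells were at 19.9 CPM on 5 UMIs, 3.10-fold lower (1.37 to 10.8).

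Over all MoMacDC cells Tlr7 was 129 CPM in steady state and 14.5 CPM after GM-CSF, 8.89-fold lower (7.98 to 9.94). It was detected in 51.6% of cells (49.4 to 53.7) and in 8.12% (7.29 to 9.02). Thinned to 1000 UMIs, the shares were 13.1% and 1.57%. Cells with 3 or more Tlr7 UMIs made up 9.27% and 0.279%, so that the gap lay in UMIs per cell as well as in the share detected. Within clusters the level was at least 2-fold lower in 6 (1, 2, 5, 7, 9 and 11) of the 8 clusters with 50 UMIs and lower by less in the other two, cluster 4 (203 to 111 CPM, 1.80-fold) and cluster 6 (107 to 56.8 CPM, 1.88-fold). Of the 6, cluster 7 had steady-state cells with NK markers, and cluster 11 carried neutrophil and granulocyte markers. Cluster 9, with most of the Progenitor DC, went from 87.9 to 3.36 CPM (5 UMIs), 23.9-fold lower (10.8 to 82.5).

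Among the 3 largest clusters of GM-conditioned cells, 2 were nearly free of Tlr7. Clusters 0 and 3, with 668 and 512 of these cells, had 2 and 3 Tlr7 UMIs, or 0.432 and 0.883 CPM. They carried 17.1% and 12.5% of the UMIs of GM-conditioned MoMacDC cells but 0.509% and 0.763% of the Tlr7 UMIs. Clusters 4 and 2 carried 1.46% and 7.33% of all UMIs and 11.2% and 26.0% of those of Tlr7. In steady state cluster 0 held 14 cells, too few to set beside the 668.

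**Figure D3:**
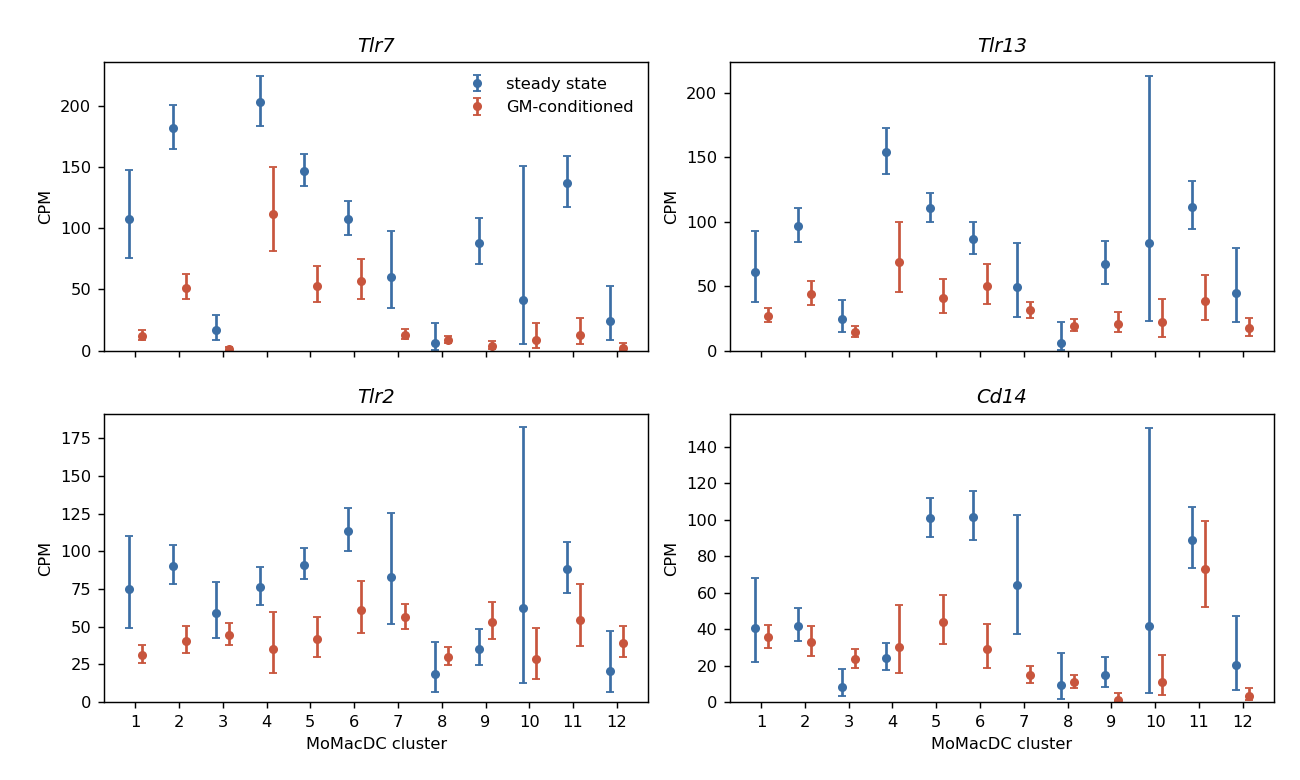
Levels of Tlr7, Tlr13, Tlr2 and Cd14 in CPM in the 12 MoMacDC clusters (1 to 12) with at least 20 cells in each library, steady state in blue and GM-conditioned in red, with exact Poisson 95% intervals. Cluster 4 leads for Tlr7 (203 and 111 CPM) and for Tlr13 (154 and 68.4 CPM) in both libraries.

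Tlr13, the endosomal receptor of bacterial ribosomal RNA, shared its MoMacDC order with Tlr7 but was also high in granulocytes. In steady state it was 148 CPM (132 to 165) in MoMacDC_c5 and 146 CPM (134 to 159) in granulocytes, which did not differ beyond counting error, followed by MoMacDC_c1 at 99.8 CPM (93.5 to 106). Granulocytes led after GM-CSF with 124 CPM (111 to 139) before MoMacDC_c5 with 74.2 CPM (49.7 to 107). The granulocyte ratio of 0.850 (0.735 to 0.980) stayed within the 2-fold rule, and 23.1% and 15.2% of granulocytes had a UMI at their differing depths. In MoMacDC cells Tlr13 was 94.7 CPM in steady state and 25.1 CPM in the GM-conditioned library, 3.77-fold lower (3.44 to 4.13), with 43.7% and 15.3% of cells detected. T cells held 8.25 CPM in steady state and 0 UMIs after GM-CSF.

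Tlr13 spanned a narrower range than Tlr7 over the MoMacDC clusters of at least 20 GM-conditioned cells, between 14.4 CPM in cluster 3 and 68.4 CPM in cluster 4, against 0.432 to 111 CPM for Tlr7. It was at least 2-fold lower than in steady state in 6 (1, 2, 4, 5, 9 and 11) of 10 clusters and higher in 1, cluster 8, where the steady-state level of 6.12 CPM rested on 2 UMIs in 28 cells with NK markers. Of the 6 lower clusters, cluster 11 carried neutrophil and granulocyte markers. Progenitor DC held 51.0 and 18.8 CPM, 2.71-fold lower (1.86 to 3.96), against the 20.6-fold of Tlr7. Cells with UMIs of both Tlr7 and Tlr13 made up 26.1% of MoMacDC cells in steady state and 1.95% after GM-CSF. After thinning these shares were 1.41% and 0.0516%.

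**Figure D4:**
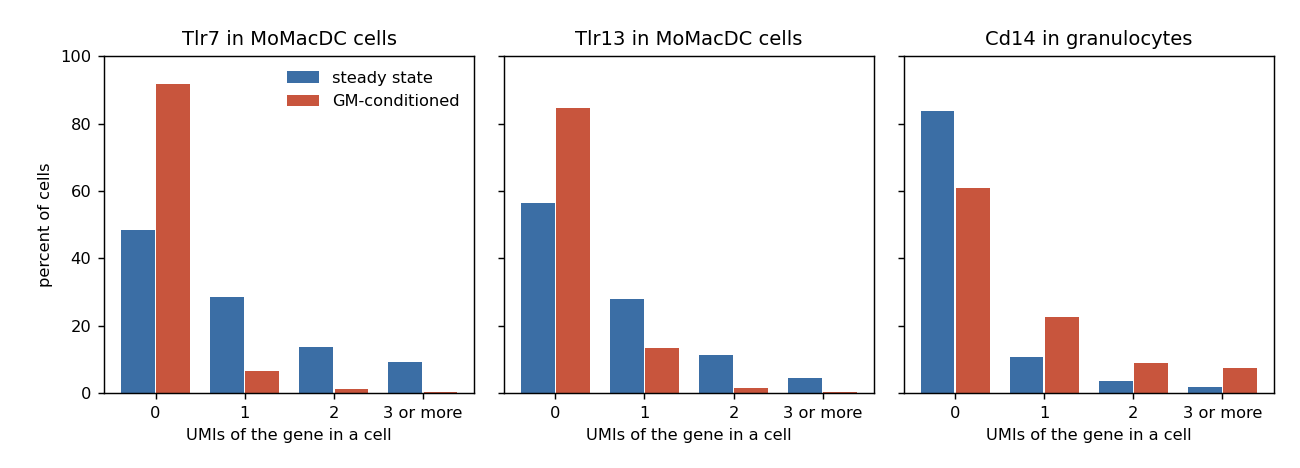
Percent of cells with 0, 1, 2 or at least 3 UMIs of Tlr7 and Tlr13 in MoMacDC cells and of Cd14 in granulocytes, steady state in blue and GM-conditioned in red. For Tlr7 the cells with 3 or more UMIs go from 9.27% to 0.279%, and for Cd14 in granulocytes from 1.71% to 7.54%.

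Tlr9, the receptor of CpG DNA, was close to its detection limit. It had 19 UMIs in 2135 steady-state and 38 UMIs in 3940 GM-conditioned MoMacDC cells, or 1.27 and 1.403 CPM, a ratio of 1.09 (0.621 to 2.03). None was seen in granulocytes or neutrophils of either library. B cells had 4 UMIs in 79 cells after GM-CSF, 15.9 CPM (4.34 to 40.8), and 0 UMIs in 196 cells in steady state, which allows up to 3.42 CPM. No order of cell types was read from so few UMIs.

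Myd88, the adaptor shared by these receptors, had UMIs in every cell type of both libraries. Granulocytes led with 244 CPM in steady state (228 to 260) and 223 CPM after GM-CSF (204 to 242), a ratio of 0.913 (0.819 to 1.02). MoMacDC_c5 and MoMacDC_c1 followed in steady state at 109 and 107 CPM with overlapping intervals, and T cells held 59.2 CPM. In MoMacDC cells Myd88 was 99.8 CPM in steady state and 120 CPM after GM-CSF, a ratio of 1.20 (1.13 to 1.28), with 47.5% and 52.4% of cells detected. MoMacDC_c2 alone went from 75.8 CPM (62.9 to 90.6) to 132 CPM (125 to 139). The adaptor was thus not among the lower members, and 11 of its 12 clusters stayed within the 2-fold rule, the exception being cluster 8 with its NK markers in steady state.

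The CD115hi cells of the MoMacDC group carry deposited subset labels drawn from antibody tags, where P-I is Ly6C+, P-III is Ly6C- MHC II+ CD301b- and P-IV is Ly6C- MHC II+ CD301b+. P-I was the one subset with enough cells in both libraries, 139 in steady state and 187 after GM-CSF. Its median depths of 7264 and 7232 UMIs per cell were close. Tlr7 in P-I was 124 CPM (104 to 146) in steady state and 36.6 CPM (27.2 to 48.1) after GM-CSF, 3.36-fold lower (2.43 to 4.76), with 56.8% and 20.3% of cells detected. Tlr13 was 118 CPM (98.6 to 140) and 31.6 CPM (22.9 to 42.4), 3.71-fold lower (2.64 to 5.40). Tlr1 was 12.8 CPM (14 UMIs) and 28.0 CPM (39 UMIs), a ratio of 2.13 (1.16 to 4.35) whose interval reached well below 2, and after thinning, on few UMIs, it was 21.7 and 10.9 CPM.

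These were the members past the rule in P-I, 1 higher and 2 lower of 7 with 50 UMIs, where 4.99% and 7.12% of 5774 genes were at least 2-fold higher and lower. Tlr2, Cd14 and Ly96 had ratios of 0.619, 0.607 and 0.624 and Myd88 one of 1.11 (0.882 to 1.39). The members' median log2 ratio was -0.69 and that of all genes -0.10, and scaling to the median gene turned 288 higher and 411 lower genes into 348 and 311 with the same 2 lower members. Classical monocyte markers in P-I (5 of 5 detected) summed to 4459 CPM in steady state and 1473 CPM after GM-CSF, and their part in the result was not tested.

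Within the GM-conditioned library the endosomal pair was lower still in the MHC II+ subsets. Tlr7 was 36.6 CPM in P-I, 8.11 CPM in the 126 P-III cells (6 UMIs, 2.98 to 17.7) and 3.11 CPM in the 313 P-IV cells (7 UMIs, 1.25 to 6.41), and Tlr7 was the 1 lower member of P-III against P-I (4.202-fold, 1.93 to 12.9), a call that was lost after thinning or with at most 5% mitochondrial UMIs per cell, when fewer than 50 UMIs were left. Of the 6 members with 50 UMIs in that comparison 0 were higher, where 1.11% of 5233 genes were at least 2-fold higher and 2.71% lower. Tlr13 was 31.6, 18.9 and 13.8 CPM in P-I, P-III and P-IV, and the intervals of neighbouring subsets overlapped. In P-IV against P-III none of the 4 members with 50 UMIs passed the rule in either direction, where 1.91% of 6216 genes were higher and 1.01% lower. Tlr2 was 50.03 CPM (35.2 to 69.0) in P-III and 28.9 CPM (22.3 to 36.8) in P-IV, 1.74-fold lower (1.12 to 2.63), and Myd88 was 119 and 121 CPM. Steady-state P-III and P-IV held 12 and 7 cells and were not compared.

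**Figure D5:**
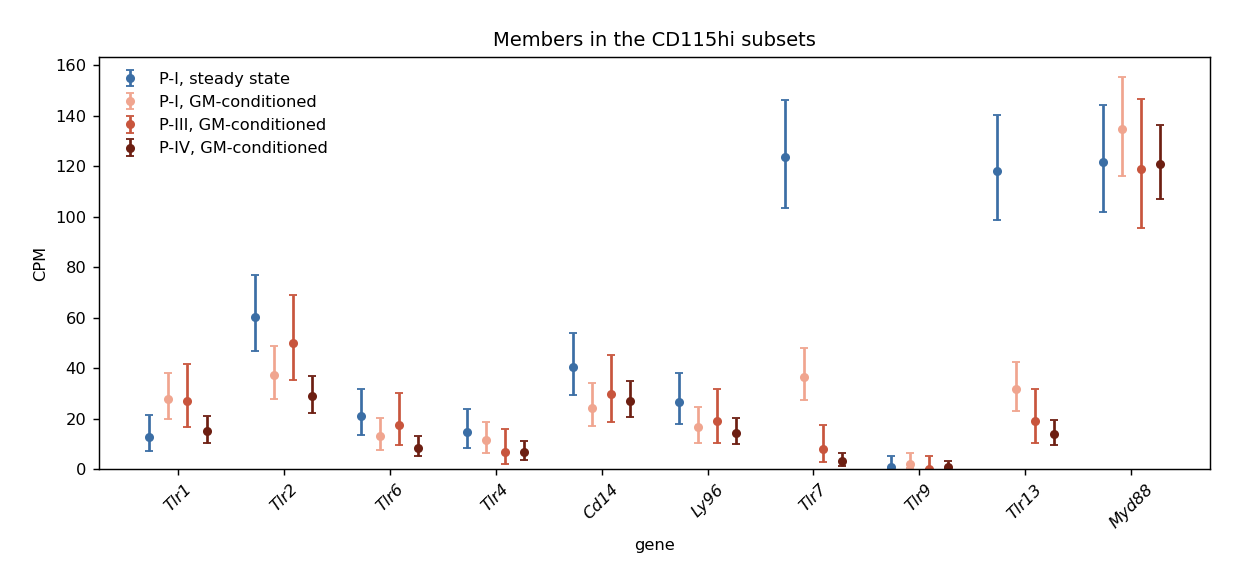
Levels of the 10 genes in CPM in the P-I subset of each library and in GM-conditioned P-III and P-IV, with exact Poisson 95% intervals. Tlr7 and Tlr13 in steady-state P-I cells (124 and 118 CPM) lie above the 3 GM-conditioned subsets, whereas the Myd88 points lie between 119 and 135 CPM.

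A list of 56 further genes of TLR signalling, grouped by role and chosen with earlier results of these data known, was read with the same rule. In MoMacDC cells 52 had 50 UMIs, of which 18 were at least 2-fold lower and 2 higher in the GM-conditioned library, where 9.46% of all genes were lower and 8.66% higher. The median log2 ratio was -0.54 for the list and -0.06 for all genes. All 5 target cytokine and chemokine genes with enough UMIs were lower, namely the chemokines Ccl3 (15.7-fold, 110 to 6.98 CPM), Ccl4 (10.3-fold) and Cxcl2 (5.38-fold) and the cytokines Il1b (8.87-fold, 367 to 41.3 CPM) and Tnf (2.83-fold). Of 9 brakes on signalling 5 were lower, with the phosphatase gene Dusp1 (3.86-fold) and the mRNA-decay factor Zfp36 (2.83-fold) among them. The interferon regulator Irf7, which acts downstream of TLR7 and TLR9, was 160 CPM in steady state and 38.6 CPM after GM-CSF, 4.13-fold lower (3.84 to 4.45). Of the other receptors the flagellin receptor Tlr5 was 3.22-fold and Tlr8 2.44-fold lower and Tlr11 higher at a ratio of 2.49 (4.95 to 12.4 CPM), and of the adaptors Ticam1, which encodes TRIF, was higher at 2.16 (15.8 to 34.1 CPM). Irak3, an inhibitory kinase, was 2.89-fold lower. None of the 5 chaperone and traffic genes, which bring endosomal TLRs to their compartment, passed the rule. The paper lists Il1b among the genes of MoMacDC clusters 11, 14 and 15, which carried neutrophil and granulocyte markers. Clusters 11 and 14 held 8.49% and 2.31% of MoMacDC UMIs in steady state and 2.03% and 0.145% after GM-CSF. Cluster 15 went the other way (0.776% and 1.45%). The list was not read at the steady-state cluster mix or without these clusters. The part of the cell mix in its folds was therefore not tested.

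In granulocytes, where Cd14 was higher, 0 of 40 genes of the list were higher and 5 were lower, Tnfaip3 (2.83-fold), Il1b (2.67-fold), Socs1 (2.55-fold), Lilrb4a (2.33-fold) and Ccl4 (2.14-fold), where 7.29% of all genes were higher and 3.2% lower, with a median log2 ratio of -0.16 against 0.11 for all genes. In neutrophils 0 of 36 were higher and 4 lower, Il1b (3.31-fold), Lilrb4a (2.33-fold), Rel (2.15-fold) and Zfp36 (2.07-fold), where 3.62% of all genes were higher and 2.48% lower, with a median of -0.29 against -0.05. In P-I 10 of 38 were lower and 0 higher, led by Cxcl2 (6.21-fold), Il1b (5.59-fold) and Dusp1 (4.02-fold), where 7.12% of all genes were lower and 4.99% higher, with a median of -0.54 against -0.10. Irf7 was the 1 gene of 31 apart between P-III and P-I (5.28-fold lower in P-III), and Il1b the 1 of 35 between P-IV and P-III (3.31-fold lower in P-IV). Of all genes, 2.71% and 1.01% were lower in these comparisons, so that nothing is read from 1 gene of the list in each.

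The genes most like a member were ranked by Pearson's r of log2(CPM + 1) over 23 groups of cell type by library and over 28 groups of MoMacDC cluster by library, as a description, since groups of a library share its depth. For Tlr7 they were Treml4 (r = 0.90), Apoe and Itgb5 over cell types and Il17ra (0.94), Dusp6 and Lst1 over clusters. For Tlr13 they were Nadk (0.93), Lst1 and Ap1s2, and Fgr (0.93), Lrrc8d and Nadk. Tlr7 and Tlr13 themselves gave r = 0.71 over cell types and 0.90 over clusters. For Cd14 the nearest genes were Cd44 (0.87), Fam129a and Sdcbp, and Tcn2 (0.92), Lilrb4a and Smox. For Tlr2 they were Cdc42ep2 (0.93), Lrrc25 and Slc15a3, and Ifi27l2a (0.83), Lpar6 and Akap13. Tlr1 and Tlr6, although neighbours in the genome, gave r = 0.21 and 0.17. The first gene over cell types was Cd2ap for Tlr1 (0.87), Gpr146 for Tlr6 (0.87), Ugp2 for Tlr4 (0.91), Arl8a for Ly96 (0.82) and Cdk2ap2 for Myd88 (0.86).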

How the data were processed

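CD11b+ splenocytes of the steady state and of GM-CSF-treated mice were profiled with the Chromium Single Cell 3′ kit (v3), 1 RNA library each. The authors deposited raw UMI counts per gene and cell from Cell Ranger 3.0.2 on mm10, after removing cells with very few or very many genes or a high mitochondrial share in Seurat (3.6.0 in the submitters' processing notes). The mitochondrial percent of each cell and the labels of condition, cell type, cluster and subset were also deposited by the authors, and they were used as given. The antibody tag tables were not used here. A 3′ library counts 1 end of each transcript, so a UMI does not tell isoforms apart.

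For each group of cells the UMIs of a gene were added up and scaled by all UMIs of that group to give CPM. With 1 library per condition no test was made, and cells were not treated as replicates. The ratio of 2 sums (0.5 added to each count) has an exact 95% interval derived from the binomial proportion of the counts. A fold of 2 was the rule for genes with at least 50 UMIs over both groups. Where a count was 0, its limit is 3 counts of the total. Total UMIs were 22,358,903 and 35,007,567 with medians of 3371 and 4916 per cell, and 11,100 of 27,998 genes had none. Doublets were called with Scrublet in scanpy 1.11.5 (141 and 186 cells) and kept except in 1 alternative. The fold rule was tested on simulated data. Neighbouring gene patterns were taken among genes with at least 200 UMIs and groups of at least 20 cells, 3 per member. Python 3.11.15, numpy 2.4.6, scipy 1.17.1 and pandas 2.3.3 were used. Positions are from GENCODE M21 and promoters from RefSeq.

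The members, the TLR signalling list, the marker lists and the alternatives were chosen with earlier results of these data known. The naming rule was all 10 members, the 3 genes most like each, and up to 10 genes of the signalling list per comparison, largest folds first. Tlr8, Tlr11 and Ticam1 fall outside that rule and were named after their values were seen. The 3 genes most like a member are named for Tlr2, Tlr7, Tlr13 and Cd14 only. For Tlr1, Tlr4, Tlr6, Ly96 and Myd88 the first gene over cell types is named, and for Tlr9 none. Alternatives were thinning each cell to 1000 UMIs, giving each cell equal weight, removing doublets, a limit of 5% mitochondrial UMIs, no minimum of UMIs, no added counts and scaling to the median gene. A further 3 were added after seeing the data, namely the steady-state cluster mix, MoMacDC cells without clusters 11, 14 and 15, and granulocytes without cells holding a UMI of Ly6c2, Csf1r or H2-Aa.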

Additional observations from a re-analysis of the deposited data

Results flagged for a closer look

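The Cd14 ratio of GM-conditioned to steady-state CPM was 3.96 in granulocytes and 2.51 in neutrophils but 0.392 in MoMacDC cells, so that the same contrast pointed in opposite directions in different cell types. With 1 library per condition this difference was not tested. Over all cells of a library Cd14 was at 66.6 CPM (63.3 to 70.1) in steady state and 67.1 CPM (64.4 to 69.9) after GM-CSF. These 2 levels also depend on the mix of cell types, which differed. Granulocytes held 3,674,789 of 22,358,903 UMIs in steady state and 2,413,074 of 35,007,567 after GM-CSF.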

How the results depend on the processing

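No paired analysis was possible because each condition had 1 library. No member past the 2-fold rule turned its direction where at least 50 UMIs were left, and Tlr1 in P-I, with fewer, turned after thinning (21.7 to 10.9 CPM). In MoMacDC cells, weighting clusters by the steady-state mix left 2 lower members, Tlr7 and Tlr13. Thinning kept 5 but put Tlr4 (2.06-fold) in the place of Tlr2 (1.84-fold), where 650 of 8100 genes were lower. Scaling to the median gene left 4, without Tlr2, where 932 of 10,860 genes were lower. In P-I, the higher count was 0 after thinning and with at most 5% mitochondrial UMIs, and the lower count was 0 after thinning, where too few UMIs were left. The lower count of P-III against P-I was 0 under the same 2 settings and 2 with no minimum (Tlr7 and Tlr9), where 1115 of 12,036 genes were lower. P-IV against P-III had 1 lower member with equal cell weights (Tlr1), where 83 of 6216 genes were lower. It had 2 with no minimum (Tlr6 and Tlr7), where 1096 of 12,341 were. With no minimum, 1 lower member (Tlr1) appeared in granulocytes and in neutrophils, where 839 of 12,782 and 1569 of 12,619 genes were lower.

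The cell type of highest level stayed the same for 6 members in steady state and 5 after GM-CSF with at most 5% mitochondrial UMIs. The leading cluster stayed the same for 4 members in each library after thinning, for 6 in steady state with the mitochondrial limit, and for 6 after GM-CSF with equal cell weights or without doublets. The order over P-I, P-III and P-IV held for 2 members after thinning and 4 with the mitochondrial limit. Except where too few UMIs were left or the minimum was dropped, the cause was not tested.

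Counts over all genes moved more, and no minimum, thinning and the mitochondrial limit also changed the number of genes tested. The main setting tested 10,860 genes in MoMacDC cells, 6257 in granulocytes, 6489 in neutrophils and 5774 in P-I. It tested 5233 in P-III against P-I and 6216 in P-IV against P-III. With no minimum there were 1808 higher and 2712 lower of 15,968 genes in MoMacDC cells and 2693 and 839 of 12,782 in granulocytes. Neutrophils had 883 and 1569 of 12,619 and P-I 1928 and 1905 of 12,307. There were 1013 and 1115 of 12,036 in P-III against P-I and 892 and 1096 of 12,341 in P-IV against P-III. After thinning there were 551 and 650 of 8100 in MoMacDC cells and 313 and 186 of 5048 in granulocytes. Neutrophils then had 139 and 56 of 2298 and P-I 50 and 86 of 934. P-III against P-I had 12 and 23 of 859 and P-IV against P-III 21 and 13 of 1280. The steady-state mix left 545 higher of 10,860 MoMacDC genes. Equal cell weights gave 367 higher of 6489 genes in neutrophils and 191 of 6216 in P-IV against P-III. The mitochondrial limit left 189 higher of 4510 genes in P-I and 27 and 80 of 3240 in P-III against P-I. The number of UMIs limits Tlr9 everywhere, Tlr1 in granulocytes and Tlr7 in P-III and P-IV.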
